A study of Mus musculus with 8 samples.

Results

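The genes described here are 33 genes of the hypoxia response and of glycolysis, listed by name; the rule uses no measured value, but the list was drawn up with earlier results of these arrays known. Of these, 28 were measured, among 22180 genes in all. Gpi1 and Eno1 had no probe set of their own in the annotation used here, and Aldoa, Bnip3l and Ankrd37 appeared only in probe sets that carry several gene symbols. Those 5 genes are therefore given no value.

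Cells answer a lack of oxygen through hypoxia-inducible factors (HIF), pairs of an oxygen-sensitive alpha subunit (HIF-1alpha, encoded by Hif1a, or HIF-2alpha, encoded by Epas1) and a stable beta subunit. In the presence of oxygen, prolyl hydroxylases of the Egln family mark the alpha subunits for destruction, so that much of the control lies in the protein and not in the transcript. The stabilised factor binds the short sequence RCGTG near its target genes, which include the glucose transporter Slc2a1, most glycolytic enzymes, genes that spare mitochondrial respiration, and Egln3 itself as a brake. Vascular smooth muscle relies on glycolysis to a large degree even with oxygen present.

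The arrays compared the thoracic aorta of newborn mice of strain C57BL/6 (postnatal day 0) that were wild-type or knockout for fibulin-4, a matrix protein needed for elastic fibres. The ascending segment began at the aortic valve and ended at the ductus arteriosus, and the descending segment lay between the vena cava and the diaphragm. Each array held RNA pooled from 8 pups and each of the 4 groups had 2 arrays, which gives wild-type ascending, wild-type descending, knockout ascending and knockout descending aorta. The labels name no other allele or treatment, and how the knockout was made is not given in the sources used here. The title calls the arrays biological replicates, but nothing in the labels ties them to separate litters. The genotypes are those of the labels, since values of the targeted gene itself are not used here. Because these are whole segments, fewer cells of a type and less RNA per cell cannot be told apart.

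All values are the deposited log2 values, and a change is the difference of 2 group means on that scale. The tissue held smooth muscle: Myh11, Acta2 and Tagln, the first 3 of 9 markers, were bright on every array, and the log2 summed level of the list was 13.3 to 13.4 in wild-type and 13.5 to 13.7 in knockout aorta. The interquartile range over genes was 1.80 and 1.74 on the second wild-type array of the ascending and of the descending segment, and 2.14 to 2.28 on the other 6 arrays. Rank correlation between the 2 arrays of a group, across genes, ran from 0.899 to 0.966. With so few arrays, precision is limited.

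The 3 members with the smallest p-values in the averaged knockout effect were Egln3, Pgk1 and Slc2a1. Their promoters are shown because the core of the HIF motif lies in each. Each sequence is the 250 bases before the transcription start in RefSeq, assembly GRCm38.p6, written 5′ to 3′ on the strand of the gene, with matches to ACGTG or GCGTG on either strand in capitals. The Egln3 window is chr12:54203875-54204124 on the minus strand, the Pgk1 window chrX:106186850-106187099 on the plus strand, and the Slc2a1 window chr4:119108495-119108744 on the plus strand.
Egln3: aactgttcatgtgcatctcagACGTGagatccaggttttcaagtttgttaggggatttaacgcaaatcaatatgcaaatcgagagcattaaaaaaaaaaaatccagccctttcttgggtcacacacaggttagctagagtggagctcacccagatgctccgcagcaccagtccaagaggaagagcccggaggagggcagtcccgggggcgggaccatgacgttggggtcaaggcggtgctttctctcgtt
Pgk1: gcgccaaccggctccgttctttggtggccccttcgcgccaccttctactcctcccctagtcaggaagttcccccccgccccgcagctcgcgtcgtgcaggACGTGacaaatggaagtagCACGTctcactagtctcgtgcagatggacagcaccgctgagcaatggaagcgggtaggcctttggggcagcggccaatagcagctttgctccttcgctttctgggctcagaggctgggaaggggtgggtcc
Slc2a1: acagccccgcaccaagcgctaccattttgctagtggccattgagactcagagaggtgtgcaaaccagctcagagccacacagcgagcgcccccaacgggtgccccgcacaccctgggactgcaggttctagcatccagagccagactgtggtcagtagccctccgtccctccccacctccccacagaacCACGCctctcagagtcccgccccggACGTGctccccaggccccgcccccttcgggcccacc

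In Egln3 the single match, ACGTG, begins 229 bases before the start. Pgk1 holds ACGTG at 150 and its reverse complement CACGT at 131 bases before the start, while Slc2a1 holds CACGC, the reverse complement of GCGTG, at 61 and ACGTG at 36. None of these 5 matches lies within the E-box CACGTG. RefSeq windows were found for 25 of the 28 measured members, and not for Slc2a3, Ndrg1 and Epas1. At least 1 match stood in a window of 23 of the 25 genes (92.0%), and in 28 of their 36 windows (77.8%). Over all genes the share was 41.5% of 27025, and over all windows 38.6% of 32851. The members' windows are also richer in CpG, with a median of 13.5 against 6 for all windows, and CpG is part of the motif, so the higher share was not separated from base composition. Eno2 and Tpi1 had no match, which says only that these letters are not in this window. A match is a description of the sequence and not a measured binding site.

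Most members had higher values in the knockout aorta of both segments, and none passed the test across all genes. The averaged knockout effect, the mean of the 2 segment effects, was above 0 for 24 of 28 members with a median of 0.28. The 4 others lay between -0.15 and -0.03 (Aldoc, Eno2, Pfkm and Car9). In the ascending aorta 24 members were above 0 with a median of 0.40, and in the descending aorta 26 with a median of 0.31. In both segments alike, 22 members were above 0, none was below 0 and 6 had opposite signs. Over all genes, 32.2% were above 0 in both segments, 29.2% below 0 in both and 38.7% of opposite sign. Counted by array, 18 to 25 of the 28 members lay above their own mean over all arrays on the 4 knockout arrays, and 3 to 12 on the wild-type arrays. The lowest of these, 3 members, was the second wild-type ascending array, 1 of the arrays with a narrow distribution.

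**Figure D1:**
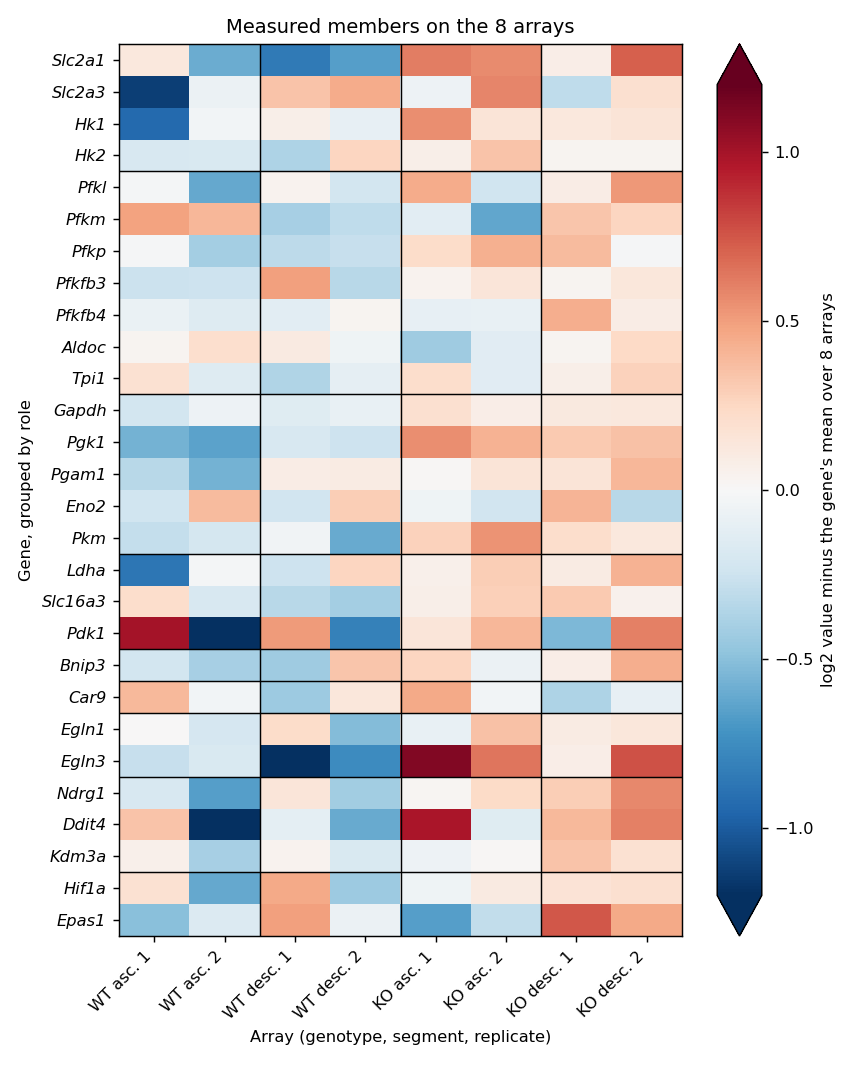
Deviation of each of the 28 measured members from its own mean over the 8 arrays, on the log2 scale, with genes in rows by role and arrays in columns by group. Cells above the mean are more frequent in the 4 knockout columns (18 to 25 members) than in the 4 wild-type columns (3 to 12 members).

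With limma's test and Benjamini-Hochberg adjustment, 0 of 28 members had an adjusted p under 0.05 in the averaged effect, where 0.0721% of all genes did. The count was also 0 of 28 in the ascending effect, against 0% of all genes, and in the descending effect, against 0.00451%. At an unadjusted p under 0.05, the averaged effect had 7 members higher and 0 lower, against 7.57% and 3.83% of all genes. The ascending effect had 6 higher and 1 lower, against 5.31% and 3.6%, and the descending effect 4 higher and 0 lower, against 3.63% and 2.32%. With all arrays of 1 genotype above all of the other in both segments, there were 9 members higher and 0 lower, against 7.81% and 4.04% of all genes. Within the ascending segment such separation was seen for 14 members higher and 2 lower (21.5% and 18.3% of all genes), and within the descending segment for 16 higher and 1 lower (21.6% and 15.8%).

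These counts depended on single arrays. The 6 members higher in the ascending effect became 2 without the first knockout ascending array and 8 without the first wild-type ascending array. The 4 in the descending effect became 2 without the second wild-type or the first knockout descending array, 1 without the second knockout descending array, and 6 without either wild-type ascending array. The 7 in the averaged effect became 11 without the first wild-type ascending array and 3 after a second quantile normalization. The median change stayed above 0 in all 3 knockout effects under these settings. Shares over all genes at an unadjusted p under 0.05 are not given for these settings. A change in the members alone thus cannot be told from one over all genes. In the averaged effect the genes called at an adjusted p under 0.05 fell from 16 to 2 after a second quantile normalization. Over the 16 alternatives, the averaged change ran from 1.13 to 1.47 for Egln3, from 0.60 to 0.85 for Pgk1 and from 0.58 to 1.17 for Slc2a1, and the lowest adjusted p of the 3 were 0.0696, 0.0927 and 0.0858.

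Changes over all genes also followed signal. With all genes cut into 5 equal groups by their mean value, the median averaged change ran from -0.14 in the dimmest group to 0.24 in the brightest, and 13 members lay in the brightest group and 8 in the next. In those 2 groups together, 20 of 21 members (95.2%) had an averaged change above 0, with a median of 0.36. Of all 8872 genes there, 73.5% were above 0, with a median of 0.19. At an unadjusted p under 0.05, 7 of the 21 members (33.3%) and 15.7% of those genes were higher. Bright genes in general thus also tended to be higher in the knockout, and the share was larger among the members; whether these shares differ was not tested.

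**Figure D2:**
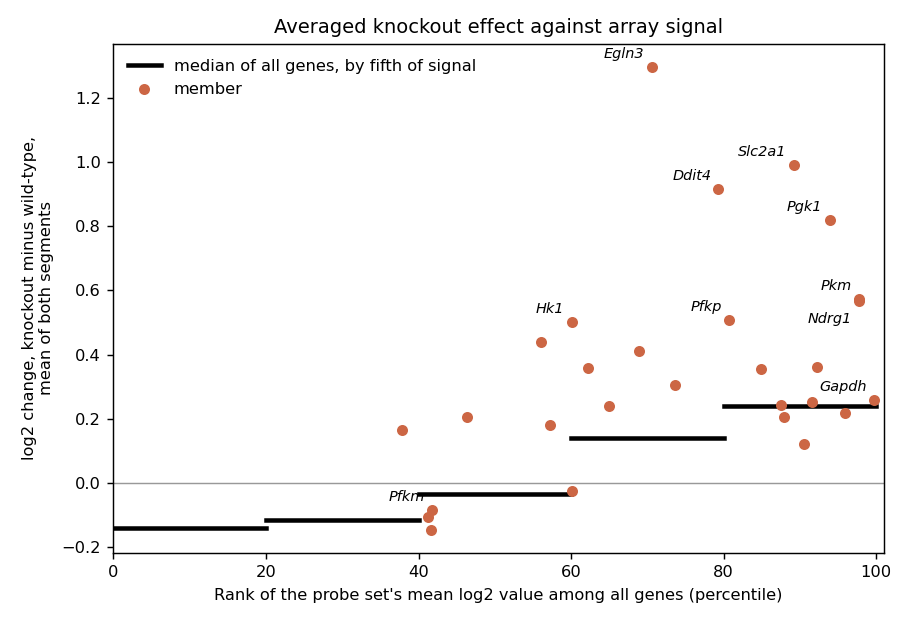
Averaged knockout effect of the 28 members (points, log2) against the percentile of the probe set's mean value among 22180 genes. Black bars give the median change of all genes in each of 5 equal groups by mean value, which ran from -0.14 to 0.24; 20 of the 21 members in the 2 brightest groups lay above 0.

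Markers of other cells differed between the genotypes as well. All 9 myeloid markers had changes above 0 in both segments, with medians of 1.23 in the ascending and 0.57 in the descending aorta, and their log2 summed level was 9.89 to 10.9 in wild-type and 11.0 to 11.5 in knockout arrays. None of 8 adipocyte markers was above 0 in either segment, with an averaged median of -0.85. Endothelial markers were below 0 on average for 9 of 9, with a median of -0.47 (-0.74 in the ascending and -0.16 in the descending aorta). Of 8 cardiomyocyte markers, 7 were above 0 in the descending aorta, with a median of 0.75 and a log2 summed level of 11.6 to 11.7 in knockout against 9.56 to 10.7 in wild-type. All 7 measured markers of chromaffin cells and neurons were above 0 there as well, with a median of 0.64. The smooth muscle list had an averaged median of 0.31, close to the 0.28 of the members. The part of these cells in the members' values was not tested.

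Glucose uptake is the first step of the pathway. Slc2a1 encodes GLUT1, the widespread facilitative glucose transporter. Its log2 values were 7.21 and 6.49 in wild-type ascending, 6.24 and 6.43 in wild-type descending, 7.70 and 7.66 in knockout ascending, and 7.17 and 7.81 in knockout descending aorta. Every knockout array stood above both wild-type arrays of its segment, and of the wild-type arrays only the first ascending one reached into the range of the knockout arrays. The change was 0.83 (SE 0.32) in the ascending and 1.15 (SE 0.32) in the descending aorta, and 0.99 (SE 0.23) on average, a 1.99-fold difference with a limma adjusted p of 0.195. A second, much dimmer probe set of Slc2a1 gave an averaged change of 0.17, and the mean of both probe sets gave 0.58.

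Slc2a3 encodes GLUT3, a transporter of high affinity best known from neurons and leukocytes. It read 3.76 and 4.82 in wild-type ascending and 5.24 and 5.34 in wild-type descending aorta, against 4.83 and 5.48 in knockout ascending and 4.59 and 5.09 in knockout descending aorta. Both knockout arrays were thus above wild-type in the ascending segment, by a narrow margin (4.83 against 4.82), and below it in the descending segment. The gene's mean value was at percentile 46.4 of all genes. The changes were 0.86 (SE 0.38) and -0.45 (SE 0.38), the averaged change 0.21, and neither passed the test. The gap in the ascending segment narrowed to 0.33 without the first wild-type array, which held the lowest value.

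Hexokinases trap glucose as glucose 6-phosphate. Hk1, the constitutive form, had values of 4.50 and 5.40 in wild-type ascending, 5.51 and 5.34 in wild-type descending, 6.00 and 5.60 in knockout ascending, and 5.57 and 5.59 in knockout descending aorta. The 4 knockout arrays were above the 4 wild-type arrays, but by a narrow margin in the descending segment, where the change was 0.16 (SE 0.32). In the ascending segment it was 0.85 (SE 0.32), and it became 0.40 without the first wild-type array and 1.29 without the second. Hk2, the form induced by insulin and by HIF, had changes of 0.39 and 0.09, of which the descending one was -0.23 without the first wild-type array and 0.40 without the second.

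Phosphofructokinase, the main control point of glycolysis, has 3 subunit genes. Pfkp, the platelet form, read 6.42 and 6.03 in wild-type ascending, 6.12 and 6.16 in wild-type descending, 6.66 and 6.87 in knockout ascending, and 6.81 and 6.42 in knockout descending aorta. Its averaged change was 0.51 (SE 0.19, limma adjusted p 0.376), nearly equal in the 2 segments at 0.54 and 0.48. Pfkl, the liver form, had changes of 0.43 and 0.39, with overlapping arrays in the ascending segment. Leaving out 1 knockout array moved the ascending change between 0.087 and 0.77 and the descending one between 0.18 and 0.61.

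Pfkm, the muscle form, behaved differently from the other 2 subunit genes. Its values were 5.21 and 5.12 in wild-type ascending, 4.32 and 4.42 in wild-type descending, 4.59 and 4.10 in knockout ascending, and 5.05 and 4.98 in knockout descending aorta. Wild-type ascending and knockout descending were the high groups, though the gene's mean value was only at percentile 41.7 of all genes. The knockout change was -0.82 (SE 0.26) in the ascending and 0.65 (SE 0.26) in the descending aorta, and neither passed the test (limma adjusted p 0.442 and 0.823). The skeletal muscle list had a median knockout change of the same sign as Pfkm in each segment, but not the same sign between the knockout segments, where Pfkm was at -0.67 and 7 of 9 markers were above 0 (median 0.19). In the ascending knockout all 9 markers (Ckm, Mylpf and Acta1 first in the list) were below 0, with a median of -1.94. In the descending knockout 7 of 9 were above 0, with a median of 0.58. Their log2 summed level was 11.1 to 12.6 in wild-type ascending, 8.85 to 9.33 in wild-type descending, 9.13 to 10.3 in knockout ascending and 9.52 to 9.80 in knockout descending aorta. Cardiomyocyte markers had the sign of Pfkm in the descending knockout effect (median 0.75) and between the knockout segments (median -0.72). They had the other sign in the ascending knockout effect (median 0.20) and between the wild-type segments (median -0.25). What part skeletal muscle or cardiomyocytes had in the Pfkm values was not tested.

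Pfkfb3 and Pfkfb4 make fructose 2,6-bisphosphate, the strongest activator of phosphofructokinase, and both are HIF targets. Pfkfb4 read 4.50 and 4.43 in wild-type ascending, 4.45 and 4.61 in wild-type descending, 4.48 and 4.49 in knockout ascending, and 5.01 and 4.67 in knockout descending aorta. It lay between 4.43 and 4.67 on 7 arrays and was highest on the first knockout descending array, and its averaged change was 0.17. Pfkfb3 had an averaged change of 0.18, with a single high wild-type value in the descending segment, where the change ran from -0.41 to 0.42 as either wild-type array was left out.

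**Figure D3:**
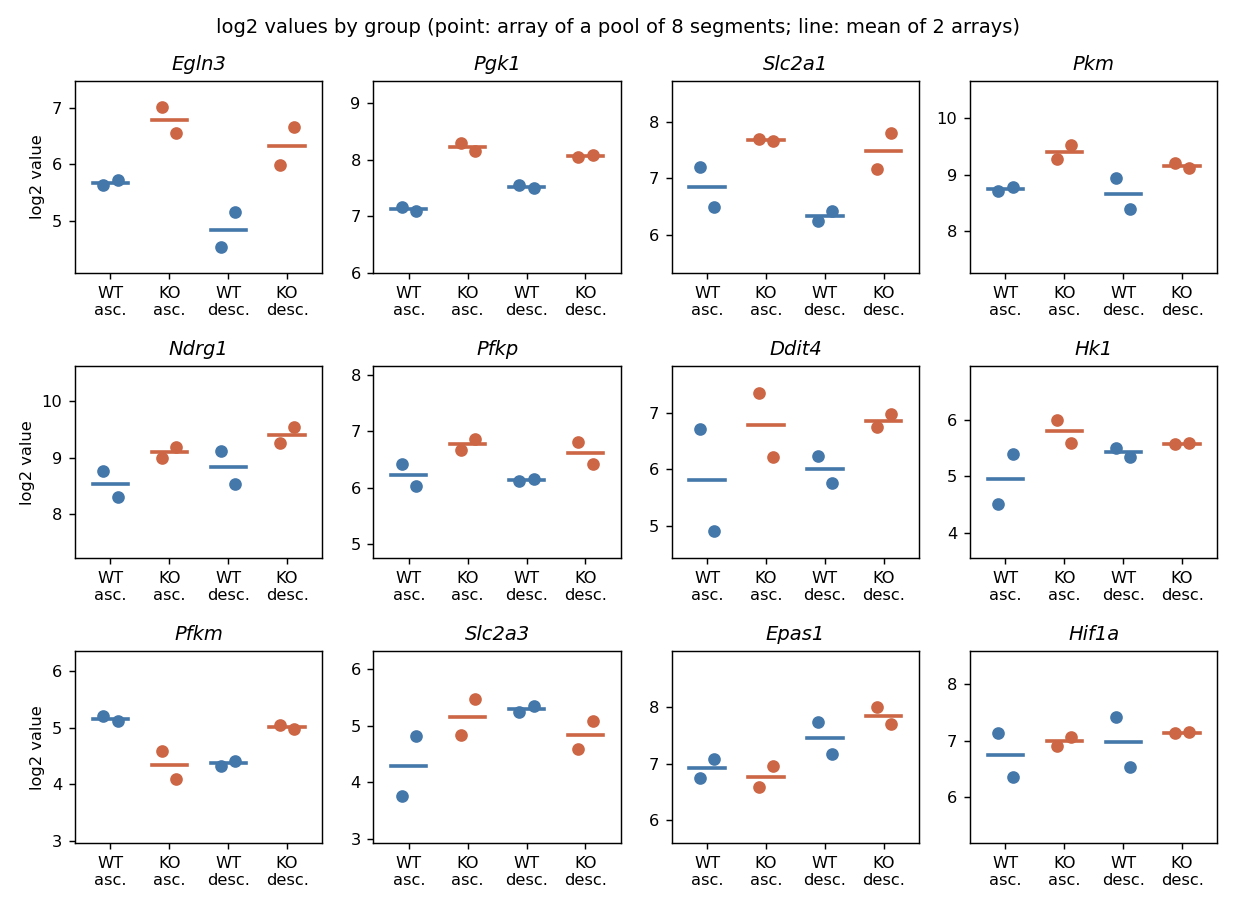
Log2 values of single members on each array, with groups along the horizontal axis and 1 point per array of a pool of 8 segments; bars mark the group means. Egln3, Pgk1 and Slc2a1 stood higher on the knockout arrays of both segments, whereas Pfkm was high in wild-type ascending and knockout descending aorta.

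Of the enzymes below phosphofructokinase, Pgk1 stood furthest from wild-type. It encodes phosphoglycerate kinase, which makes the first ATP of the pathway. The arrays read 7.17 and 7.10 in wild-type ascending, 7.55 and 7.49 in wild-type descending, 8.29 and 8.16 in knockout ascending, and 8.06 and 8.09 in knockout descending aorta. The lowest knockout value exceeded the highest wild-type value, and replicate arrays differed by far less than the genotypes. The change was 1.09 (SE 0.23) in the ascending and 0.55 (SE 0.23) in the descending aorta. On average it was 0.82 (SE 0.16), a 1.77-fold difference with a limma adjusted p of 0.137.

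Gapdh, the enzyme before it and a common reference gene, is among the brightest genes on the arrays. It read 11.23 and 11.39 in wild-type ascending, 11.30 and 11.36 in wild-type descending, 11.65 and 11.53 in knockout ascending, and 11.57 and 11.58 in knockout descending aorta. All 4 knockout values lay above all 4 wild-type values, but the averaged change was small at 0.26, with a 95% interval from -0.11 to 0.63. Gapdh, Pgk1 and Ldha have related copies in the mouse genome, and whether their probes also detect these was not tested.

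Pgam1, phosphoglycerate mutase, read 7.10 and 6.87 in wild-type ascending, 7.53 and 7.53 in wild-type descending, 7.45 and 7.59 in knockout ascending, and 7.60 and 7.84 in knockout descending aorta. The 2 wild-type ascending arrays were the low ones, and the averaged change was 0.36. In the descending segment the change of 0.19 became -0.04 after a second quantile normalization.

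Pkm, pyruvate kinase, makes the second ATP of the pathway. Its values were 8.71 and 8.78 in wild-type ascending, 8.95 and 8.38 in wild-type descending, 9.27 and 9.53 in knockout ascending, and 9.20 and 9.11 in knockout descending aorta. Again every knockout array was above every wild-type array, with an averaged change of 0.57 (SE 0.19, limma adjusted p 0.342). The arrays used here give 1 value for the gene and do not separate its splice forms.

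Aldoc, the aldolase of brain, read 4.76 and 4.92 in wild-type ascending, 4.83 and 4.67 in wild-type descending, 4.29 and 4.59 in knockout ascending, and 4.75 and 4.96 in knockout descending aorta. It was lowest in knockout ascending aorta, where the change was -0.40 (SE 0.25). Eno2, the neuronal enolase, had an averaged change of -0.11, and Tpi1, triose phosphate isomerase, one of 0.22. Aldoc and Eno2 thus lacked the higher knockout values seen on every array for Pgk1 and Pkm, but their signal was also lower. Their mean values were at percentiles 41.6 and 41.2 of all genes, against 93.9 for Pgk1 and 97.8 for Pkm. In the middle of the 5 groups by mean value, which holds Aldoc and Eno2, 44.2% of all genes had an averaged change above 0.

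Lactate dehydrogenase turns pyruvate to lactate, and the main HIF-dependent subunit is Ldha. It read 4.41 and 5.25 in wild-type ascending, 5.03 and 5.52 in wild-type descending, 5.33 and 5.57 in knockout ascending, and 5.37 and 5.69 in knockout descending aorta. The mean value of its probe set was at percentile 56.1 of all genes, against 99.7 for Gapdh and 97.8 for Pkm. Both segments had higher means in the knockout, with overlap in the descending segment, and the averaged change was 0.44 with a 95% interval from -0.09 to 0.97. It became 0.23 without the first and 0.65 without the second wild-type ascending array. Slc16a3, the lactate exporter MCT4, had changes of 0.17 and 0.55, the first of which was -0.037 without the second wild-type array. Pdk1, the kinase that holds pyruvate back from the mitochondrion, read 7.06 and 4.75 on the 2 wild-type ascending arrays, and its 2 probe sets gave averaged changes of 0.30 and -0.03. Its ascending change of 0.43 became -0.73 without the second of those arrays and 1.58 without the first, so no direction is given for it.

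**Figure D4:**
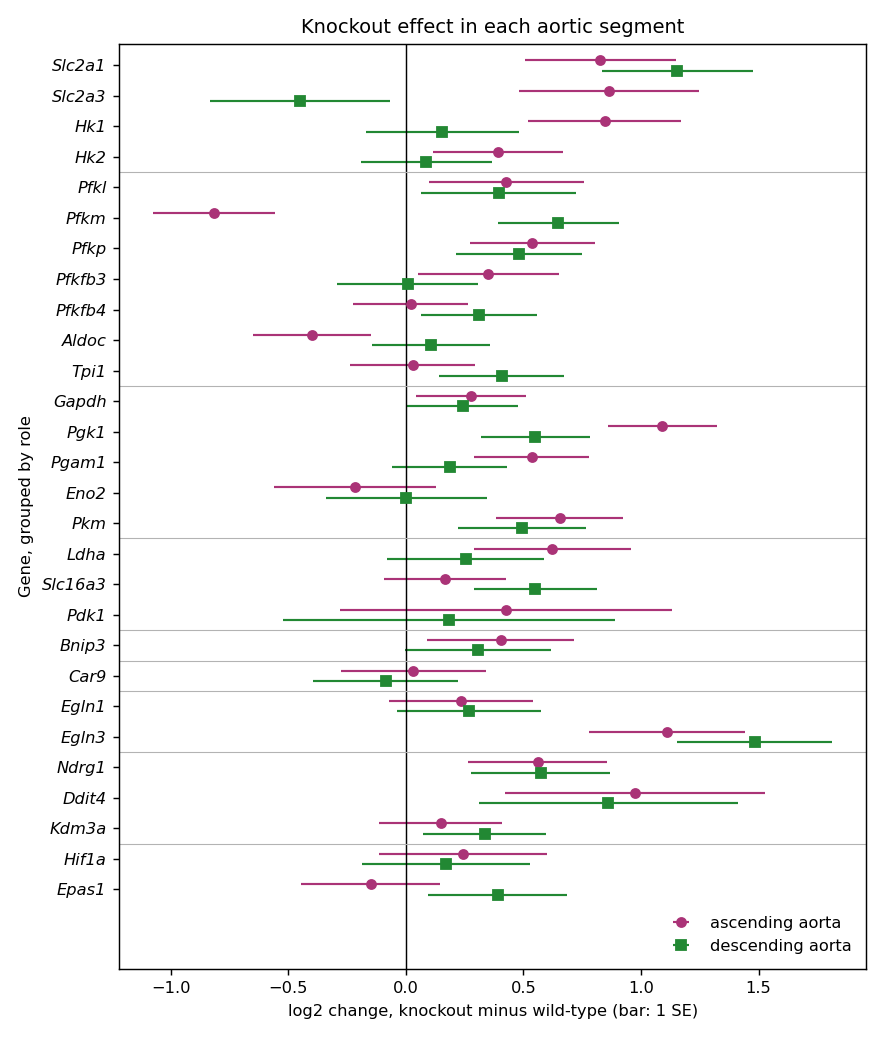
Knockout effect of each member (log2, knockout minus wild-type) in the ascending and in the descending aorta, with points for the estimate and bars for 1 SE of limma's fit to either side, ordered by role. In all, 22 of 28 members lie above 0 in both segments, and Slc2a3 and Pfkm lie on opposite sides of 0.

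Among the oxygen sensors, Egln3 had the largest change of all members. It encodes PHD3, the prolyl hydroxylase that is itself most strongly induced by HIF. The arrays read 5.62 and 5.72 in wild-type ascending, 4.53 and 5.15 in wild-type descending, 7.01 and 6.55 in knockout ascending, and 5.98 and 6.67 in knockout descending aorta. All knockout values were above all wild-type values, and within each genotype the ascending segment had the higher mean. The change was 1.11 (SE 0.33) in the ascending and 1.48 (SE 0.33) in the descending aorta. The average was 1.30 (SE 0.23), a 2.46-fold difference with a limma adjusted p of 0.111. Egln1, the main oxygen sensor under normal oxygen, had overlapping arrays and an averaged change of 0.25 (SE 0.22).

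Hif1a and Epas1, the alpha subunit genes among the members, had averaged knockout changes with intervals that include 0. Hif1a read 7.15 and 6.35 in wild-type ascending, 7.42 and 6.53 in wild-type descending, 6.92 and 7.07 in knockout ascending, and 7.13 and 7.16 in knockout descending aorta. The knockout arrays lay between the wild-type extremes, whose low values were both on the arrays with narrow distributions. The averaged change was 0.21 with a 95% interval from -0.36 to 0.77, and it was -0.21 without those 2 arrays. Transcript levels do not report the stability of the protein.

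Epas1 is known for its high level in endothelium. It read 6.74 and 7.08 in wild-type ascending, 7.74 and 7.17 in wild-type descending, 6.58 and 6.95 in knockout ascending, and 7.99 and 7.70 in knockout descending aorta. It was higher in the descending segment, and the averaged knockout change was 0.12 with a 95% interval from -0.35 to 0.59.

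The remaining targets act in stress and metabolism. Ndrg1, a stress-induced growth regulator, read 8.77 and 8.30 in wild-type ascending, 9.11 and 8.55 in wild-type descending, 8.99 and 9.20 in knockout ascending, and 9.26 and 9.54 in knockout descending aorta. The knockout arrays of a segment were above its wild-type arrays, with an averaged change of 0.57 (SE 0.21, limma adjusted p 0.376), which became 0.31 without the 2 narrow wild-type arrays. Its second probe set gave 0.62.

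Ddit4 (REDD1), an inhibitor of mTORC1 signalling, read 6.70 and 4.91 in wild-type ascending, 6.24 and 5.75 in wild-type descending, 7.34 and 6.22 in knockout ascending, and 6.75 and 6.97 in knockout descending aorta. The averaged change of 0.92 (SE 0.39, limma adjusted p 0.419) became 0.47 without the second wild-type ascending array, 1.37 without the first, and 0.35 without the 2 narrow arrays. The ascending groups overlapped, and the ascending change of 0.97 became 0.076 without the second wild-type array.

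Bnip3, which directs mitochondria to autophagy, had an averaged change of 0.36 (SE 0.22), with a descending change of 0.31 that became -0.074 without the first wild-type array, and Kdm3a, a histone demethylase induced by HIF, one of 0.24 (SE 0.18). Car9, a carbonic anhydrase that is among the most oxygen-dependent genes of tumours, had changes of 0.03 and -0.09, and its averaged 95% interval ran from -0.52 to 0.46. A second, dimmer probe set of Car9 gave changes of 0.32 and -0.04, and an averaged change of 0.14.

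The segment comparisons asked whether ascending and descending aorta differ within a genotype. In wild-type aorta, 11 of 28 members were higher in the ascending segment, with a median difference of -0.08. Here 0 members passed the adjusted test (0.00902% of all genes did), and 2 were higher and 1 lower at an unadjusted p under 0.05 (3.21% and 2.98%). Ascending minus descending, the differences with the smallest p-values were 0.79 for Pfkm, -0.999 for Slc2a3, 0.83 for Egln3 and -0.55 for Pgam1. Leaving out wild-type arrays changed the counts of higher and lower members, but it leaves 1 array in a group. Shares over all genes are not given for those settings, so no reading of the members alone is drawn from them.

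In knockout aorta, 13 of 28 members were higher in the ascending segment, with a median of -0.04. Of these comparisons 0 passed the adjusted test (0% of all genes), with 0 higher and 2 lower at an unadjusted p under 0.05 (2% and 2.04%). The 2 were Epas1, at -1.08 (SE 0.30), and Pfkm, at -0.67 (SE 0.26), followed by Aldoc at -0.42 and Pfkfb4 at -0.36. The count of lower members changed when single knockout arrays were left out, but this leaves 1 array in a group. Shares over all genes are not given for those settings. Endothelial markers lay lower in the same comparison. None of 9 (Cdh5, Pecam1 and Tie1 first in the list) was above 0, with a median of -0.85, and their log2 summed level was 9.79 to 9.94 in knockout ascending aorta against 10.5 to 11.0 in the other groups. Other marker lists had medians below 0 in this comparison too, among them -0.72 for cardiomyocytes and -0.65 for adipocytes. The lists of smooth and skeletal muscle had medians above 0, at 0.21 and 0.19. Between the wild-type segments Epas1 was at -0.54, with an endothelial median of -0.12. The part of endothelium or of other cells in the Epas1 values was not tested.

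Whether the knockout effect differed between segments was tested as the ascending minus the descending effect. No member passed (0 of 28, 0% of all genes), and 1 was higher and 1 lower at an unadjusted p under 0.05 (1.62% and 1.68%). These were Slc2a3, at 1.31 (SE 0.54), and Pfkm, at -1.47 (SE 0.37), both with a limma adjusted p of 0.9996. The count of higher members changed when single arrays were left out, but this leaves 1 array in a group. Shares over all genes are not given for those settings. Slc2a3 and Pfkm were also the only members with separated arrays in opposite directions, 1 each way, against 1.38% and 2.27% of all genes. Hk1 and Pgk1 followed with 0.69 (SE 0.46) and 0.54 (SE 0.33). The other 24 members lay between the values of Pfkm and Slc2a3, and the median of all 28 was 0.05.

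Genes of the same pathways outside the 28 are given from lists made by name. Of 30 other HIF targets 28 were measured, with a mean level of 6.24 to 6.93 by array against 5.12 to 5.19 for all genes. Of all genes in the 2 brightest groups, 73.5% had an averaged change above 0 and 15.7% were higher at an unadjusted p under 0.05. In the list 23 (82.1%) were above 0, against 49.8% of all genes, with a median of 0.39. At that threshold 12 of the list were higher and 0 lower, against 7.57% and 3.83% of all genes. One of them was called (0.0721% of all genes): Adm, which encodes adrenomedullin, a vasodilator peptide induced by hypoxia, rose by 1.82 (SE 0.24, limma adjusted p 0.0358). Its values were 5.98 and 5.05 in wild-type ascending, 5.40 and 5.29 in wild-type descending, 7.64 and 7.17 in knockout ascending, and 6.91 and 7.26 in knockout descending aorta, with no overlap. The change stayed between 1.56 and 2.05 under 16 alternative settings, with adjusted p from 0.0161 to 0.219, and the call held in 8 of them. It was lost after a second quantile normalization, without the 2 narrow arrays, and when either wild-type descending array or any knockout array was left out.

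Next in that list were 2 enzymes of collagen modification, Plod2 at 1.31 (SE 0.23) and P4ha1 at 1.14 (SE 0.22), the growth factor binding protein Igfbp3 at 0.87 (SE 0.17), and haem oxygenase Hmox1 at 1.40 (SE 0.28). None of these 4 passed, with limma adjusted p of 0.103 to 0.132. Vegfa, the best known angiogenic HIF target, was at 0.17 (SE 0.24); it was singled out after its value was seen.

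Of 11 measured regulators of the HIF pathway (14 listed), 7 had an averaged change above 0, with a median of 0.36. At an unadjusted p under 0.05, 5 were higher and 1 lower (7.57% and 3.83% of all genes). This list was also brighter than all genes, with a mean level of 6.24 to 6.58 by array. Hif3a, an alpha subunit whose short forms inhibit HIF, was at 0.83 (SE 0.18), with the coactivator Ep300 at 0.60, the ubiquitin ligase subunit Cul2 at 0.49, Os9 at 0.55 and the beta subunit Arnt2 at -0.57.

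Glycolytic and gluconeogenic enzymes outside the members, many of them isozymes of liver, muscle or testis, were split: 10 of 21 measured (25 listed) had an averaged change above 0, with a median of -0.01. There were 4 higher and 3 lower at an unadjusted p under 0.05, against the same 7.57% and 3.83%, and 0 called. The gluconeogenic enzymes Pck1 and Fbp2 were at -0.84 and -0.60, while Pdk4, the pyruvate dehydrogenase kinase of fasting, was at 0.80, Pgm2 at 0.62 and the testis enzyme Gapdhs at 0.53.

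The last lists cover the branches that lead away from glycolysis. In the pentose phosphate pathway 4 of 6 genes (8 listed) were above 0, with a median of 0.25 and examples Pgd at 0.44, H6pd at 0.47 and Taldo1 at 0.43. For pyruvate dehydrogenase and the citric acid cycle the count was 16 of 24 (26 listed) with a median of 0.05, where Mdh2 was at 0.38, Pdha1 at 0.40 and Idh3b at -0.37. For the respiratory chain and ATP synthase it was 8 of 22 (24 listed) with a median of -0.09, with Cycs at -0.52 and Ndufb8 at -0.43. In the averaged effect these 3 lists held no gene at an unadjusted p under 0.05, higher or lower (7.57% and 3.83% of all genes). In the ascending effect 1 pentose phosphate and 1 citric acid cycle gene were higher, against 5.31% of all genes. In the descending effect 1 citric acid cycle and 1 respiratory chain gene were lower, against 2.32% of all genes.

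**Figure D5:**
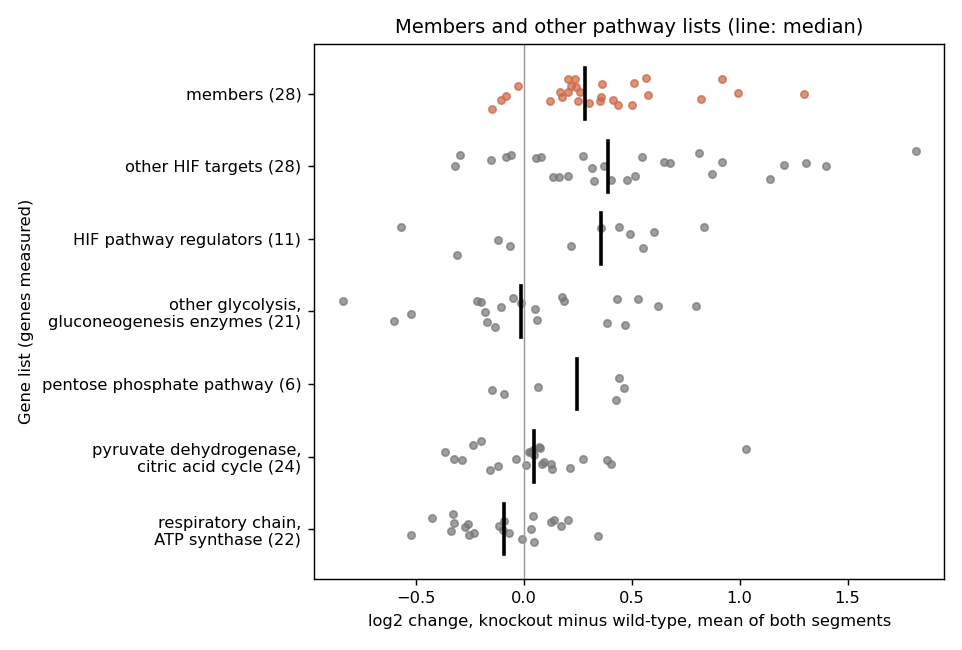
Averaged knockout effect (log2) of every measured gene in the members and in the other pathway lists, 1 point per gene, with a bar at the list median. The medians were 0.28 for the members, 0.39 for other HIF targets, 0.36 for regulators, -0.01 for other glycolytic and gluconeogenic enzymes, 0.25 for the pentose phosphate pathway, 0.05 for the citric acid cycle and -0.09 for the respiratory chain.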

How the data were processed

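Per the labels' protocols, RNA of pools of 8 aortic segments was amplified from 5 ng, labelled with biotin and measured on 8 Affymetrix arrays. The log2 values per probe set are as the authors deposited them, from Expression Console with RMA according to the submitters' processing notes (versions and build not given there). RMA compresses differences of dim genes. Of 41345 probe sets, 23521 had 1 gene symbol, and the brightest on average was kept per gene, which left 22180 genes.

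The 4 group means were fitted over all 8 arrays with limma 3.58.1 in R 4.3.3 (4 residual and 5.52 prior degrees of freedom), with Benjamini-Hochberg adjustment over all genes in each of 6 comparisons and a threshold of 0.05. Members, lists and tests were chosen with earlier results of these data known. Values on every array are printed for the 8 members with the smallest p in the averaged effect, the 4 in every other comparison, and Hif1a, Epas1, Gapdh and Ldha; of other pathway lists, up to 5 genes with the smallest p in the averaged effect could be named. The fit was tested on simulated data. A log2 change of 1 was recovered for 13.4% of changed genes in the ascending, 4.48% in the descending and 62.7% in the averaged effect. For a log2 change of 2 the shares were 95.5%, 92.5% and 100%. Promoters were read from RefSeq windows (GRCm38.p6), of which the 50 bases after the start were not used. Alternatives were another scaling, gene filter, probe set rule, replicate block or limma option, and leaving out arrays. Plots were made in Python 3.11.15 with matplotlib 3.10.9. The targeted gene is not reported here.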

Additional observations from a re-analysis of the deposited data

Results flagged for a closer look

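The knockout effect on Slc2a3, the glucose transporter GLUT3, lay on opposite sides of 0 in the 2 segments, with separated arrays in both. In the ascending segment the margin was narrow, at 4.83 in knockout against 4.82 in wild-type. The gene's mean value was at percentile 46.4 of all genes. The ascending minus the descending effect was 1.31, and it ranged from 0.78 to 1.85 over the alternatives. The test of this difference did not pass (limma adjusted p 0.9996).

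The effect on Pfkm, the muscle subunit of phosphofructokinase, was likewise opposite in the 2 segments with separated arrays, in the other direction. The difference was -1.47, ranged from -1.71 to -1.22 over the alternatives, and did not pass (limma adjusted p 0.9996). The mean value of Pfkm was at percentile 41.7 of all genes.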

How the results depend on the processing

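No member was called in any comparison under any alternative. With a second quantile normalization the median of the members became 0.31 in the ascending, 0.16 in the descending and 0.21 in the averaged knockout effect, and the members higher at an unadjusted p under 0.05 in the averaged effect became 3. Without both wild-type replicate 2 arrays the ascending median became 0.22 and that of the difference between segments -0.14, with 2 members higher there, and the wild-type segment comparison had 4 higher and 4 lower. That comparison had 1 higher and 0 lower with array weights, and 2 lower without the dimmest 25% of genes.

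Leaving out 1 array at a time gave members higher of 2 to 8 (ascending), 1 to 6 (descending) and 5 to 11 (averaged), and lower of 0 to 1 (ascending). The medians ran from 0.22 to 0.41, from 0.27 to 0.455 and from 0.26 to 0.37. In the wild-type segment comparison the median ran from -0.20 to 0.028, with 1 to 2 higher and 0 to 3 lower, and in the knockout one from -0.15 to 0.019 with 1 to 2 lower. For the difference of effects the median ran from -0.19 to 0.15, with 0 to 2 higher and 1 lower. Where this left 1 array in a group, that array was assumed to vary like the other groups. Shares over all genes are not given beside these counts of members.

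With the replicate number as a block, 8 members were higher at an unadjusted p under 0.05 in the ascending and 8 in the averaged effect. No member was called. Over all genes the averaged effect had 19 genes called at an adjusted p under 0.05 with the block, against 16 in the main fit. Shares over all genes at the unadjusted threshold are not given for this setting. The replicate numbers share no stated source. Over 6 pairs of groups, deviations of same-numbered arrays correlated at 0.29 between the wild-type segments and from -0.08 to 0.12 in the other pairs. The wild-type segments are also the groups with the narrow second arrays. The fit on only the groups compared was not applicable to the averaged effect and the difference between segments, which use all groups. With 2 arrays per group the standard error of a member's change within a segment was 0.23 to 0.71, which limits what the test can call.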
